A study of Mus musculus with 14 samples.

Results

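Il33, the gene of the cytokine interleukin-33 (IL-33), and 6 receptor genes of the interleukin-1 family were followed across cultured mouse CD4 T cells. The receptor genes were Il1rl1 (ST2, the IL-33 receptor), Il1r1 and Il1r2 (the signalling and the decoy receptor for IL-1), Il1rap (the accessory chain that IL-1 and IL-33 receptors share), and Il18r1 and Il18rap (both chains of the IL-18 receptor). They were taken by gene symbol through their Entrez identifiers, and all 7 were found among the 27179 genes of the count table. All 7 also passed the filter on low counts that left 13075 genes. Il33 and Il1rl1 had almost no counts in at least 1 culture, so they passed it through the cultures in which they were higher. The genes were chosen by their CPM levels in these same cultures, which were already known. Their levels and differences are therefore given as a description, with no p-value.

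The samples were 14 RNA libraries of CD4 T cells of the C57BL/6 genotype, cultured from naive cells and sorted after 3.5 days on plate-bound antibodies against CD3 and CD28. Th1 denotes a Th1 culture (5 libraries). TfhA denotes a follicular helper T cell (Tfh) culture given an antibody against TGF-β (4 libraries), and Tfh5 a Tfh culture that received TGF-β at 5 ng/ml instead (5 libraries). No source used here gives the other cytokines, the sort gate or whether replicates came from separate animals, so spread and p-values describe these libraries and may be technical. Levels are CPM, counts scaled to library size after trimmed-mean (TMM) normalization. Values are mean ± SD, over the 5, 4 and 5 libraries of Th1, TfhA and Tfh5. Fold changes come from an edgeR fit of all genes and are given on the log2 scale with an SE. This SE is the size of the log2 fold change divided by the square root of the F statistic of its test. It is thus no separate estimate of spread.

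Library totals ran from 8805921 to 16108059 counts. The 7 CD4 T cell markers summed to at least 4215.5 CPM in every library, with Cd4 at 357.8 to 571 CPM and Cd3e at 474 to 1045 CPM, while Cd8a reached at most 2.92 CPM. The summed level of 10 monocyte, macrophage and dendritic cell markers was 160 to 221 CPM in Th1, between 46.8 and 96.7 in TfhA, and between 6.73 and 10.5 in Tfh5. Most of this was Cd74, and the sum without it was 3.81 to 6.85, 8.49 to 15.3 and 1.12 to 2.28 CPM. Of 8 mast cell and basophil markers, Cpa3, Mcpt4, Mcpt8, Fcer1a and Tpsb2 had no count in any library. The 7 B cell markers summed to 25.6 to 33.9 CPM in Th1, between 18.3 and 28.6 in TfhA, and between 0.971 and 3.04 in Tfh5, mostly Ebf1 in Th1 and TfhA. The 7 CD8 T and NK cell markers summed to 57.2 to 101 CPM in Th1 and to 64.8 to 95.1 in TfhA. In Tfh5 they summed to 66.8 to 112 CPM. Klrd1 and Klrk1 were the most abundant over all libraries but went in opposite directions. Klrd1 was at 16.6 ± 3.94 CPM in Th1, 40.2 ± 11.2 in TfhA and 73.3 ± 17.9 in Tfh5. Klrk1 was at 40.9 ± 6.27, 23.1 ± 6.52 and 0.915 ± 0.702 CPM. In bulk RNA, fewer cells of a type and less RNA per cell cannot be told apart.

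Receptors of the IL-1 family carry a cytoplasmic TIR domain. When a cytokine binds its own receptor chain, an accessory chain joins, and the paired TIR domains recruit MyD88 and IRAK kinases, which lead to NF-κB and MAP kinases. Il1r2 lacks that domain and acts as a sink for IL-1. In CD4 T cells, the IL-1 receptor is known for its part in Th17 cells, ST2 for Th2 cells and a subset of regulatory T cells, and the IL-18 receptor for Th1 cells. IL-33 itself is a nuclear cytokine best known from epithelial, endothelial and stromal cells.

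The sequences just upstream of the starts of Il33, Il1rl1 and Il1r1 are shown because Il33 and Il1rl1 are the cytokine and receptor that were nearly absent from whole cultures, and Il1r1 differed most steeply in the other direction. Each line holds the 250 bases before a RefSeq start (GRCm38.p6, the build mm10 of the files) that overlaps no annotated exon. The inner Il1rl1 start is not shown, because its window does overlap one. Capitals mark a match to any of 6 short motifs searched on both strands.
Il33 outer start, chr19:29924863-29925112, plus strand: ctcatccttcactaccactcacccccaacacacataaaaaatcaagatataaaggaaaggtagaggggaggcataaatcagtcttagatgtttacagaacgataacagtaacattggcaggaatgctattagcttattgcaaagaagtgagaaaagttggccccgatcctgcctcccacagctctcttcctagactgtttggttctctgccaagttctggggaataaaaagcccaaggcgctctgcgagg
Il33 inner start, chr19:29945540-29945789, plus strand: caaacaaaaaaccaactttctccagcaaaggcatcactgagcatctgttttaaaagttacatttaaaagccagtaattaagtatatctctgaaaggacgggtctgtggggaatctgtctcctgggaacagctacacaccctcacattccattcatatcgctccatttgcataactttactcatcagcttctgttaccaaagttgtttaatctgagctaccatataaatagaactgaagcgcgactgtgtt
Il1rl1 outer start, chr1:40429320-40429569, plus strand: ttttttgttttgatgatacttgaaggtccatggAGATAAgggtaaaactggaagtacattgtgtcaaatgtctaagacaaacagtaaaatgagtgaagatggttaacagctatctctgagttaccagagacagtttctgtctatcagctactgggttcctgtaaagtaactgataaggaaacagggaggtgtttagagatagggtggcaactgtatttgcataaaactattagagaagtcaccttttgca
Il1r1 outer start, chr1:40224830-40225079, plus strand: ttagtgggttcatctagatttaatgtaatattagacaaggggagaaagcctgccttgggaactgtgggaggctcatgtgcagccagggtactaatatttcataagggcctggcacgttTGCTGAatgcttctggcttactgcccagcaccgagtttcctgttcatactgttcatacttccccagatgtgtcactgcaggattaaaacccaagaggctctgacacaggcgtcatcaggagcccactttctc
Il1r1 inner start, chr1:40266336-40266585, plus strand: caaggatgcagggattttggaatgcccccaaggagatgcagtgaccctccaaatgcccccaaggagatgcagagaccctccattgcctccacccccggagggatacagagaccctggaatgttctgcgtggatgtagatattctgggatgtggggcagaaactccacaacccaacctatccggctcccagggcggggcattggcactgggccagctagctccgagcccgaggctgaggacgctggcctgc
The STAT type motif was searched as TTCNNNGAA, and the T-box type motif as GGTGTGA. For the ROR core the letters were AGGTCA, and for the GATA type AGATAA. The SMAD type was taken as CAGACA, and the Maf type as TGCTGA. Matches in these windows did not overlap each other. The outer Il1r1 window held TGCTGA at -132 from the start, as did 16.1% of 32851 such windows in the genome on either strand. The outer Il1rl1 window held AGATAA at -217, found in 9.99% of windows. None of the 6 motifs was in the inner Il1r1 window or in either Il33 window. The motifs occurred in 3.33% (GGTGTGA) to 17.1% (CAGACA) of all windows, with TTCNNNGAA in 7.02% and AGGTCA in 14%. A match is a string of letters and no evidence of binding, and the counts do not tell which start was used.

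Il33 transcript was found almost only in TfhA. It lies on mm10 chromosome 19, 29925114 to 29960718, apart from the receptor genes. The 4 TfhA libraries held 11.6, 11.6, 8.22 and 10.5 CPM (replicates 1, 2, 4 and 5), from 76 to 153 counts each. The 5 Th1 libraries held 0.436, 0.0693, 0, 0.208 and 0 CPM, or 11 counts in all. The 5 Tfh5 libraries held 0.0951, 0.408, 0, 0 and 0 CPM, or 5 counts in all. Every TfhA library was above every library of the other cultures, and Th1 and Tfh5 overlapped. On the log2 scale the fitted change was 6.01 ± 0.51 for TfhA over Th1 and -6.68 ± 0.58 for Tfh5 over TfhA. Because so few counts stood on the low side, these values moved with single libraries, to 6.98 without Th1 replicate 1 and to -8.34 without Tfh5 replicate 2. Between Tfh5 and Th1 the value was -0.67 ± 0.94, and it was 0.31 without Th1 replicate 1 and -2.33 without Tfh5 replicate 2, so no order of these cultures can be read.

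Markers of cells known to make IL-33 were examined beside it. The summed level of 12 stromal and endothelial markers was 30.9 to 37.6 CPM in Th1, between 114 and 154 in TfhA, and between 170 and 182 in Tfh5, mostly Pecam1, which T cells also express. Without Pecam1 the other 11 markers summed to 6.11 to 9.43 CPM in Th1, between 15.8 and 24.4 in TfhA, and between 14.3 and 19.4 in Tfh5, so TfhA and Tfh5 overlapped. Postn, a matrix protein gene, was at 12 ± 2.53 CPM in Tfh5 and at 0.0189 ± 0.0379 in TfhA, opposite to Il33. With Postn left out as well, a choice made after its values were seen, the other 10 markers summed to 6.11 to 9.29 CPM in Th1, between 15.8 and 24.4 in TfhA, and between 2.07 and 6.52 in Tfh5. Of these, Dcn, a matrix proteoglycan gene chosen after its values were seen, was at 7.25 to 12.6 CPM in TfhA, 0.685 to 1.18 in Th1 and 0 in Tfh5. Col3a1, Cdh5 and Krt8 had no count in TfhA. H2-Aa, a class II gene of antigen-presenting cells, followed the order of Dcn, with 5.62 to 8.11 CPM in TfhA, 0.208 to 0.561 in Th1 and 0 in Tfh5. Cd74, of the same marker list as H2-Aa, did not. It was at 175 ± 22.9 CPM in Th1, 60.4 ± 17.8 in TfhA and 6.83 ± 1.30 in Tfh5. Lyz2 and Adgre1 of that list had no count in TfhA. The part of stromal, endothelial or antigen-presenting cells in the Il33 level was not tested.

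The receptor for IL-33 had a different order. Il1rl1, on chromosome 1 at 40429570 to 40465415, was at 1.5, 3.53, 2.87, 3.19 and 2.51 CPM in the Th1 libraries. The TfhA libraries held 1.74, 1.19, 0.865 and 1.27 CPM, and the Tfh5 libraries 0.0951, 0, 0, 0.569 and 0. Th1 and TfhA overlapped at a single Th1 library, replicate 1, and Tfh5 lay below both. The log2 fold change was -1.08 ± 0.47 for TfhA over Th1, -3.22 ± 0.68 for Tfh5 over TfhA and -4.30 ± 0.61 for Tfh5 over Th1. Tfh5 replicate 4 held 6 of the 7 counts of its group, and without it the last 2 values were -5.30 and -6.37. The highest mean was thus in TfhA for the ligand and in Th1 for the receptor, although Th1 and TfhA overlapped for Il1rl1. Per kb of exon the receptor gene reached only 0.395 ± 0.113 CPM in Th1, the culture with its highest mean. Il33 reached 3.63 ± 0.55 in TfhA. Mast cells are another known source of ST2, and the 8 mast cell and basophil markers summed to 8.6 to 12.9 CPM in Th1, mostly Kit, to at most 2.27 in TfhA and to at most 6.01 in Tfh5. Their part in the Il1rl1 level was not tested. Counts per gene do not separate the membrane form of ST2 from its soluble form, which come from the same gene.

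**Figure D1:**
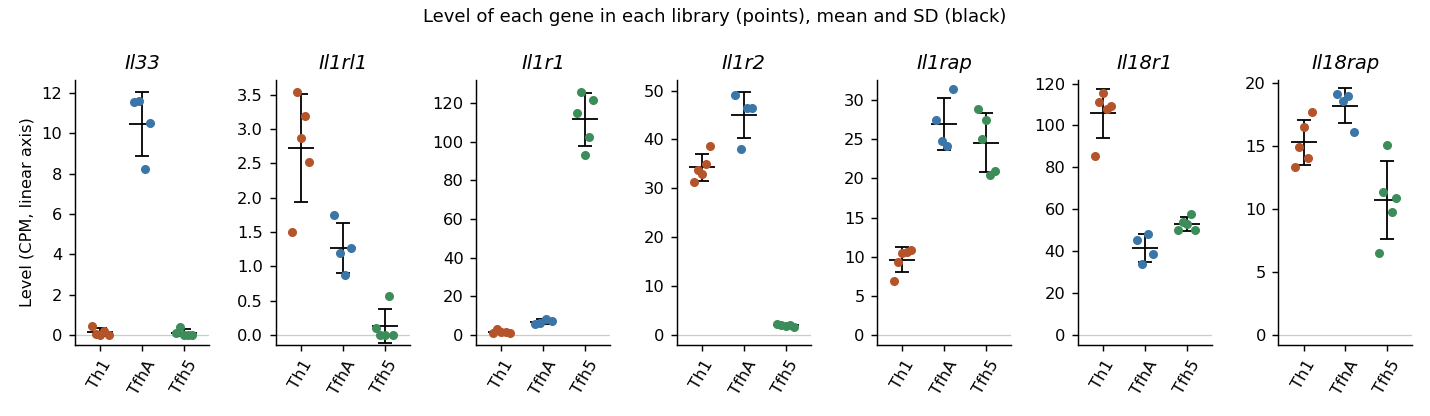
Level of each of the 7 genes in each library (points, CPM on a linear axis with its own scale per gene), with the mean and SD of each culture in black. Il33 was near 0 outside TfhA, Il1r1 stood at 93.1 to 126 CPM in Tfh5 and at most 8.33 elsewhere, and Il1r2 stood at 1.57 to 2.28 CPM in Tfh5 and at least 31.3 elsewhere.

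The signalling and the decoy receptor for IL-1 differed in opposite directions between Tfh5 and TfhA. Il1r1, on chromosome 1 at 40225080 to 40317257, was at 115, 126, 93.1, 103 and 122 CPM in Tfh5. The TfhA libraries held 5.45, 6.39, 8.33 and 7.32 CPM, and the Th1 libraries 1.06, 3.12, 1.74, 1.66 and 1.22. The 3 cultures did not overlap at any point. In the fit, Il1r1 had a log2 fold change of 4.03 ± 0.18 for Tfh5 over TfhA (16.4-fold), 1.95 ± 0.22 for TfhA over Th1 (3.86-fold) and 5.98 ± 0.19 for Tfh5 over Th1 (63.2-fold).

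Il1r2, 99.8 kb away on the same chromosome at 40074079 to 40125231, was at 2.28, 2.04, 1.89, 2.09 and 1.57 CPM in Tfh5. The TfhA libraries held 49.1, 38.1, 46.5 and 46.5 CPM, and the Th1 libraries 31.3, 33.7, 32.9, 35 and 38.7. Tfh5 lay far below both other cultures, which overlapped at the lowest TfhA and the highest Th1 library. For Il1r2 the log2 fold change was -4.52 ± 0.15 for Tfh5 over TfhA (22.9-fold lower), -4.12 ± 0.14 for Tfh5 over Th1 (17.4-fold lower) and 0.39 ± 0.11 for TfhA over Th1. Divided by exon length, the ratio of Il1r1 to Il1r2 was 0.0155 ± 0.00735 in Th1, 0.0461 ± 0.00895 in TfhA and 17.3 ± 3.71 in Tfh5. Its highest value in any Th1 or TfhA library was 0.0537 and its lowest in Tfh5 was 14.7. Monocytes and neutrophils also express Il1r2, and the monocyte marker sums given above were lowest in Tfh5 as well. Between Th1 and TfhA, that sum was higher in Th1 with Cd74 and higher in TfhA without it. Lyz2 and Adgre1 of that list had no count in TfhA, and Itgax and Adgre1 none in Th1. No list of neutrophil markers was made. The part of monocytes and neutrophils in the Il1r2 level was not tested.

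Il1rap separated Th1 from both Tfh cultures rather than TGF-β from its blockade. The gene lies on chromosome 16 at 26581704 to 26730117. Th1 libraries held 6.92, 9.35, 10.5, 10.6 and 10.8 CPM. TfhA libraries held 27.5, 24.7, 24.1 and 31.4 CPM, and Tfh5 libraries 28.9, 25.1, 27.4, 20.5 and 21. TfhA and Tfh5 overlapped widely, and every library of both was above every Th1 library. Fitted log2 fold changes of Il1rap were 1.48 ± 0.15 for TfhA over Th1, 1.35 ± 0.14 for Tfh5 over Th1 and -0.13 ± 0.15 for Tfh5 over TfhA. Per kb of exon, Il1r1 stood at 0.329 ± 0.153 of Il1rap in Th1, 0.462 ± 0.112 in TfhA and 8.28 ± 1.70 in Tfh5. An antisense gene, Gm20319, overlaps an exon of Il1rap, and no source used here says whether the counting used strand.

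The 2 chains of the IL-18 receptor differed in their order. Il18r1, the ligand-binding chain, on chromosome 1 at 40465552 to 40500854, was at 85.6, 111, 116, 108 and 109 CPM in Th1. The TfhA libraries held 45.3, 33.8, 48.4 and 38.7 CPM, and the Tfh5 libraries 50, 54.1, 52.7, 57.8 and 50.1. The 3 cultures did not overlap, although the highest TfhA and lowest Tfh5 libraries were close. The log2 fold change was -1.35 ± 0.11 for TfhA over Th1, -1.0 ± 0.10 for Tfh5 over Th1 and 0.35 ± 0.11 for Tfh5 over TfhA.

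Il18rap, the accessory chain that signalling needs, lies on chromosome 1 at 40515362 to 40551705. It was at 13.3, 14.9, 16.5, 14.1 and 17.7 CPM in Th1, at 19.2, 18.6, 18.9 and 16.1 in TfhA, and at 6.47, 11.3, 15.1, 9.77 and 10.9 in Tfh5. TfhA and Th1 overlapped, as did Th1 and Tfh5, and Tfh5 lay below TfhA. The log2 fold change was 0.25 ± 0.17 for TfhA over Th1, -0.77 ± 0.17 for Tfh5 over TfhA and -0.51 ± 0.17 for Tfh5 over Th1. Per kb of exon the ratio of Il18r1 to Il18rap was 9.74 ± 0.917 in Th1, 3.2 ± 0.452 in TfhA and 7.44 ± 2.25 in Tfh5. The Il18rap level varied more between Tfh5 libraries (coefficient of variation 28.9%) than between Th1 (11.7%) or TfhA libraries (7.71%).

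**Figure D2:**
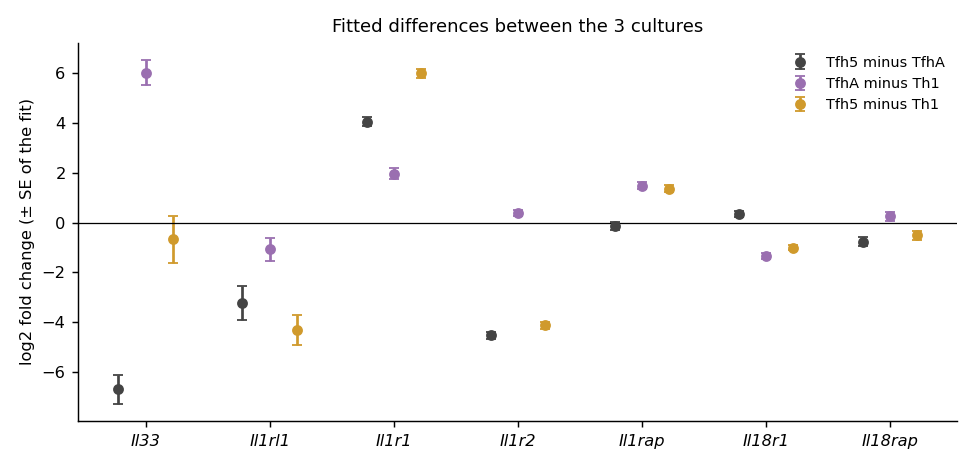
Log2 fold change of each gene in the 3 comparisons (points) with the SE derived from the edgeR F test (bars). The comparisons share libraries. Il1r1 and Il1r2 lie on opposite sides of 0 in both comparisons of Tfh5, at 4.03 and -4.52 against TfhA, and Il33 has the widest bars where both cultures had few counts.

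Of the 7 genes, 2 lay wholly above and 4 wholly below TfhA in the Tfh5 libraries, while 44.2% of all tested genes had no overlap in that comparison (20.8% above, 23.4% below). In TfhA against Th1, 3 lay wholly above and 1 below, against 38.1% of tested genes (19.3% above, 18.7% below). In Tfh5 against Th1, 2 lay wholly above and 3 below, against 50.2% (23.7% above, 26.5% below). Since the genes were chosen with these values in view, nothing is read from those counts. The median log2 fold change over the 7 genes was -0.77, 0.39 and -0.67 in these comparisons, beside -0.01, 0.03 and -0.01 over all tested genes.

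Per kb of exon, the summed level of the 6 receptor genes differed less between cultures than its makeup did. The sum was 43.8 ± 3.83 CPM per kb in Th1, 38.6 ± 3.81 in TfhA and 33.3 ± 1.76 in Tfh5, and the Th1 libraries (37.1 to 47) lay above the Tfh5 libraries (31.2 to 36). In Th1 cells Il18r1 made up 50.2% ± 2.19 of it and Il1r2 41.2% ± 2.49. In TfhA cells Il1r2 made up 61.2% ± 1.34 and Il18r1 22.3% ± 1.77. In Tfh5 cells Il1r1 made up 52.5% ± 4.10, against 0.628% ± 0.274 in Th1 and 2.82% ± 0.513 in TfhA, and Il1r2 3.11% ± 0.446. Il1rl1 made up at most 1.14% in any library. Exon lengths were taken from GENCODE M21 and may differ from those used in counting, and transcript shares do not give receptor numbers on cells.

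**Figure D3:**
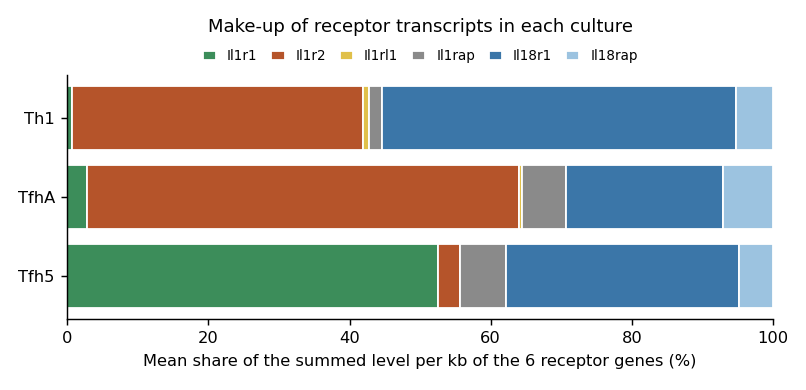
Mean share of each receptor gene in the summed level per kb of exon of the 6 receptor genes (stacked bars, %), by culture. Il18r1 and Il1r2 filled most of the Th1 bar, Il1r2 most of the TfhA bar (61.2%), and Il1r1 (52.5%) with Il18r1 (33%) most of the Tfh5 bar.

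Position was a feature that the choice of genes had not used. Of the 6 receptor genes, 5 lie on the plus strand of chromosome 1 within 477.6 kb, in the order Il1r2, Il1r1, Il1rl1, Il18r1 and Il18rap, with Il1rl2, the IL-36 receptor gene, between Il1r1 and Il1rl1. Whether neighbours in this order shared a direction depended on the comparison. In Tfh5 against TfhA, Il1r2 was lower while the adjacent Il1r1 was higher, and Il1rl1 and Il18r1, with adjoining ends, also had opposite signs, whereas Il1rl2 and Il1rl1 were both lower. In TfhA against Th1, the log2 fold changes of Il1r2 (0.39, libraries overlapping) and Il1r1 (1.95) were both above 0. Those of Il18r1 (-1.35) and Il18rap (0.25, libraries overlapping) had opposite signs there. In Tfh5 against Th1, those of Il1rl1 (-4.30), Il18r1 (-1.0) and Il18rap (-0.51, libraries overlapping) were all below 0. Those of Il1r2 (-4.12) and Il1r1 (5.98) had opposite signs there too. Il1rl2, which was not among the chosen genes, was lower in Tfh5 (3.32 ± 0.476 CPM) than in TfhA (6.58 ± 0.586 CPM, edgeR adjusted p = 0.00027) and Th1 (5.60 ± 0.815 CPM, adjusted p = 0.00195), and did not pass between TfhA and Th1 (log2 fold change 0.24 ± 0.20, adjusted p = 0.351).

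Protein-coding genes within 500 kb of either end were tested in the same fit. Map4k4, a kinase gene 47.8 kb before Il1r2, was at 110 ± 9.04 CPM in Th1, 244 ± 23.5 in TfhA and 338 ± 16.6 in Tfh5, and rose in TfhA over Th1 (log2 fold change 1.15 ± 0.09, adjusted p = 1.36e-10) and in Tfh5 over TfhA (0.47 ± 0.09, adjusted p = 7.41e-05). Rnf149, a ubiquitin ligase gene at 497 kb, rose in Tfh5 over TfhA (2.92 ± 0.10, adjusted p = 1.39e-17), from 40.4 ± 3.88 to 305 ± 17.7 CPM. Creg2, Slc9a2 and Mfsd9 were higher and Rfx8 was lower in Tfh5 than in TfhA, at means of at most 2.73 CPM in any culture. Slc9a4, Tmem182 and Gm3646 had no count. Beside Il33, Ranbp6 rose in Tfh5 over TfhA (0.79 ± 0.13, adjusted p = 1.32e-05) and did not pass between TfhA and Th1 (0.30 ± 0.13, adjusted p = 0.0643), and Trpd52l3 had no count. Both neighbours of Il1rap, Tmem207 and Gmnc, had none.

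**Figure D4:**
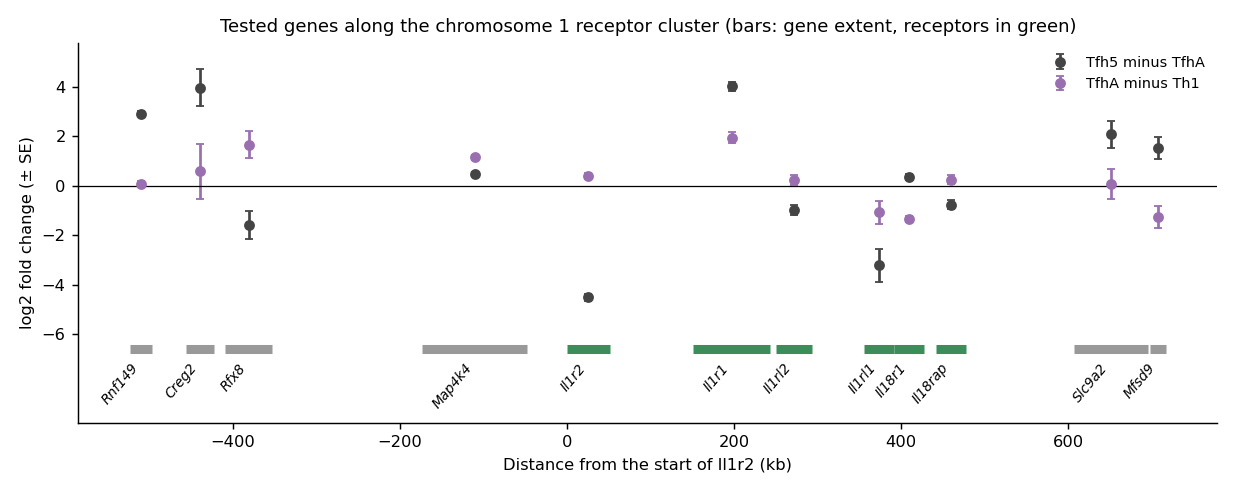
Log2 fold change (± SE) of the tested genes along the chromosome 1 receptor cluster, placed by distance from the start of Il1r2 in kb; bars at the bottom show the extent of each gene, with receptors in green. In Tfh5 minus TfhA the adjacent Il1r2 and Il1r1 stand at -4.52 and 4.03.

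The other genes of the pathway were counted from lists of ligands, chains and signalling molecules that exclude the 7 genes. These lists were also chosen with earlier results of these data known, so nothing is read from their counts. Among ligands and inhibitors, 3 of 9 could be tested, and all 3 passed in each comparison. In Tfh5 against TfhA, where 57.5% of all tested genes passed (27.4% higher, 30.1% lower), 1 rose and 2 fell. Il1rn, the IL-1 receptor antagonist, rose from 0.547 ± 0.255 to 6.03 ± 3.02 CPM (log2 fold change 3.39 ± 0.46, adjusted p = 7.53e-07). Il18 had no count in Tfh5 and 4.14 ± 1.89 CPM in TfhA, at least 75.8-fold lower taking 3 counts in the whole group as the floor. Il18bp, the soluble inhibitor of IL-18, fell slightly (-0.40 ± 0.16, adjusted p = 0.0357), a call lost under 7 of 20 alternatives, namely no filter on low counts, only the 2 groups compared, and leaving out TfhA replicate 2 or 5 or Tfh5 replicate 1, 2 or 4 (adjusted p = 0.0194 to 0.164 over all).

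Against Th1, where 44.8% of tested genes passed for TfhA (23.2% higher, 21.6% lower) and 64.6% for Tfh5 (31.5% higher, 33% lower), the same ligand genes were mostly lower. Il18 was at 6.73 ± 1.09 CPM in Th1, at least 123-fold above Tfh5, and its call in TfhA (-0.72 ± 0.29, adjusted p = 0.0498) was lost under 8 of 20 alternatives (0.00899 to 0.172), all of them with 1 library left out: any Th1 library or TfhA replicate 1, 2 or 5. Il18bp, at 17 ± 0.989 CPM in Th1, was lower in both TfhA (9.79 ± 1.5, adjusted p = 0.000152) and Tfh5 (7.42 ± 1.05, adjusted p = 1.09e-07). Il1rn was at 3.19 ± 0.653 CPM in Th1, fell in TfhA (adjusted p = 0.000127) and was higher in Tfh5 (0.92 ± 0.33, adjusted p = 0.0186), the latter call lost without Th1 replicate 4 (0.053) or Tfh5 replicate 2 (0.0761, within 0.000292 to 0.0761 over alternatives). Il1b had 1 count in all libraries together, Il1a had 32 in Th1, 25 in TfhA and 12 in Tfh5, and Il1f6, Il1f8, Il1f9 (the IL-36 ligands) and Il1f10 none. Sigirr, a TIR receptor that dampens signalling, was at 169 ± 25.8 CPM in Th1, and fell in TfhA (124 ± 19, adjusted p = 0.00221) and in Tfh5 (114 ± 5.11, adjusted p = 4.95e-05).

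Of 19 tested genes of receptor-proximal signalling, 5 rose and 3 fell in Tfh5 against TfhA. That was 42.1% of the list, beside 57.5% of all tested genes. The median log2 fold change was 0.01, beside -0.01 over all genes. The adaptor Myd88 (95.2 against 95.8 CPM, log2 fold change -0.01 ± 0.09, adjusted p = 0.934) and the kinase Irak1 (175 against 174 CPM, 0.01 ± 0.09, adjusted p = 0.906) did not pass. Traf6 (0.46 ± 0.09, adjusted p = 0.000138) and Irak4 (0.44 ± 0.13, adjusted p = 0.00554) rose, with no overlap of libraries. Peli2, a ubiquitin ligase that binds IRAK kinases, rose from 0.36 ± 0.265 to 138 ± 16.3 CPM (347-fold, and 573-fold without TfhA replicate 1, adjusted p = 1.09e-18). The kinase Irak2 fell 2.58-fold, from 23.7 ± 4.28 to 9.24 ± 1.20 CPM (adjusted p = 5.56e-09). Sharpin, of the linear ubiquitin complex, rose 1.53-fold and the kinase Map3k7 (TAK1) 1.51-fold. Ecsit fell 1.47-fold and Peli1 1.26-fold.

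In TfhA against Th1, 1 of these 19 genes rose (Peli1, 1.61-fold) and 6 fell, among them Traf6 (1.89-fold), Irak2 (1.65-fold) and Rnf31 (1.59-fold). That was 36.8% of the list, beside 44.8% of all tested genes. In Tfh5 against Th1, 7 rose and 7 fell (73.7%, beside 64.6% of all tested genes). Irak2 was 4.25-fold lower (39.2 ± 2.63 CPM in Th1, adjusted p = 4.6e-13), while Irak4 was 1.67-fold, Map3k7 1.46-fold and Peli2 35.2-fold higher. Peli2 was at 3.91 ± 1.08 CPM in Th1, so its lowest level was in TfhA. Peli3 and Tifa had too few counts to test.

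At the NF-κB and MAP kinase step, 4 of 20 genes rose and 5 fell in Tfh5 against TfhA (median 0.08). That was 45% of the list, beside 57.5% of all tested genes. The kinases Mapk9 (2.21-fold) and Mapk8 (1.74-fold) rose, and the inhibitor gene Nfkbia (1.87-fold) and the kinase Map2k4 (1.76-fold) fell. Against Th1, TfhA gave 7 higher and 6 lower (65%, beside 44.8% of all tested genes). Tfh5 gave 6 higher and 8 lower (70%, beside 64.6% of all tested genes). Nfkb2 stood at 257 ± 53.5 CPM in Th1 and was lower in TfhA (98.6 ± 16.6, adjusted p = 7.42e-09) and in Tfh5 (66.4 ± 7.01, adjusted p = 1.04e-12 against Th1). Nfkbie and Mapkapk2 fell 2.54-fold and 2.34-fold in TfhA, and 2.44-fold and 2.83-fold in Tfh5. Tnfaip3, which ends NF-κB signalling, fell 1.79-fold in TfhA.

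Genes of the inflammasome and of proteases that cleave IL-1 family cytokines went in both directions. In Tfh5 against TfhA, 7 of 12 fell and 4 rose, beside 30.1% lower and 27.4% higher over all tested genes, with a median log2 fold change of -0.47. Casp1, which matures IL-1β and IL-18, fell from 26.9 ± 4.99 to 1.79 ± 0.811 CPM (15.1-fold, adjusted p = 6.07e-14). Casp4 fell 13.7-fold, while the DNA sensor Aim2 rose 2.44-fold. In Tfh5 against Th1, 7 fell and 5 rose, beside 33% lower and 31.5% higher over all tested genes, with Casp1 16.8-fold and Casp4 14.9-fold lower. In TfhA against Th1, 2 rose, among them Pycard by 1.92-fold, and 2 fell, among them Capn2 by 1.43-fold. That was 33.3% of the list, beside 44.8% of all tested genes.

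Genes that the literature links to these receptors were counted as well, from lists written with the main results known. Nothing is therefore read from their counts. Of 13 Th17 genes linked to IL-1, 8 rose and 3 fell in Tfh5 against TfhA (median 2.42). That was 84.6% of the list, beside 57.5% of all tested genes. Ahr rose from 16.6 ± 3.23 to 446 ± 43.1 CPM (26.7-fold) and Ccl20 712-fold, in the libraries where Il1r1 was highest. The 3 that fell there were Il23r, Il22 and Nfkbiz. Il23r fell 3.36-fold, from 26 ± 7.87 to 7.7 ± 2.67 CPM (adjusted p = 1.6e-07). Il22 fell 12.7-fold, from 1.26 ± 0.189 to 0.0747 ± 0.167 CPM, and Nfkbiz 1.37-fold. In TfhA against Th1, 2 rose and 3 fell (38.5%, beside 44.8% of all tested genes), with Nfkbiz 2.07-fold higher and Irf4 2.19-fold lower. In Tfh5 against Th1, 8 rose and 4 fell (92.3%, beside 64.6% of all tested genes).

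Of 9 tested type 2 genes linked to IL-33 and ST2, 2 rose and 6 fell in Tfh5 against TfhA (median -0.86). That was 88.9% of the list, beside 57.5% of all tested genes. Pparg, at 15.5 ± 2.25 CPM in TfhA, was down to 0.666 ± 0.843 in Tfh5 (24.3-fold; 51.7-fold if Tfh5 replicate 2 is left out), Areg fell 2.80-fold and Gata3 1.82-fold, while Ccr8 rose 18.9-fold. In TfhA against Th1, 4 rose and 2 fell (66.7%, beside 44.8% of all tested genes). Areg, a growth factor gene that ST2-bearing cells express, rose from 1.26 ± 0.16 to 7.03 ± 2.21 CPM (adjusted p = 3.31e-07). Gata3, the Th2 regulator, rose from 12.8 ± 2.17 to 36.5 ± 6.16 CPM (adjusted p = 1.31e-08). TfhA was the culture with the most Il33 but not the highest mean Il1rl1 level. The 2 that fell were Ccr8 (2.08-fold, adjusted p = 0.00024, libraries overlapping) and Il9 (from 2.08 ± 0.533 to 0.027 ± 0.0541 CPM, adjusted p = 7.74e-06). In Tfh5 against Th1, 4 rose and 5 fell (100%, beside 64.6% of all tested genes). Of 14 Th1 genes linked to IL-18 and IL-12, 11 fell and 2 rose in Tfh5 against Th1. In each of the other comparisons 10 fell and 3 rose. Every comparison thus had 92.9% of the list passing. The share of all tested genes was 57.5% in Tfh5 against TfhA, 44.8% in TfhA against Th1 and 64.6% in Tfh5 against Th1. Il12rb2, a chain of the IL-12 receptor, stood at 2364 ± 268 CPM in Th1, 793 ± 146 in TfhA and 46.3 ± 6.43 in Tfh5 (51-fold below Th1). Tbx21, the Th1 regulator, stood at 244 ± 35.3, 61.6 ± 7.06 and 1.89 ± 0.424 CPM, while the Il18r1 level was 2-fold lower in Tfh5 than in Th1. Txk, a kinase gene, was the exception with the widest rise, 8.61-fold in TfhA and 20.2-fold in Tfh5 over Th1.

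**Figure D5:**
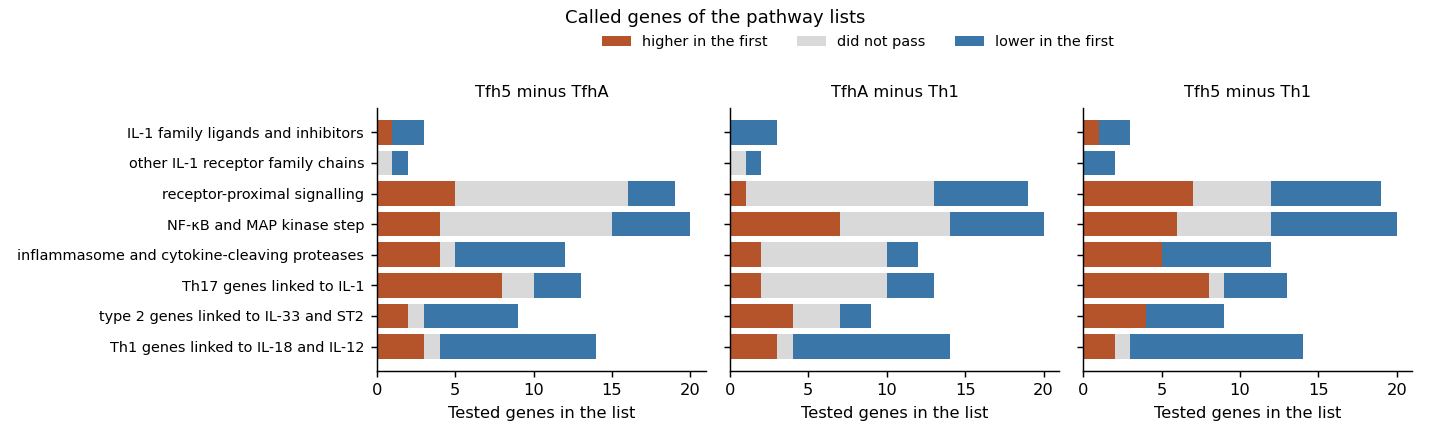
Number of tested genes in each pathway list that were higher (red), lower (blue) or did not pass (grey) at an adjusted p under 0.05, in the 3 comparisons. The list of Th1 genes has the most lower genes (10, 10 and 11 of 14), and 11 of 19 receptor-proximal genes did not pass between Tfh5 and TfhA. Of all tested genes, 57.5% passed in Tfh5 minus TfhA, 44.8% in TfhA minus Th1 and 64.6% in Tfh5 minus Th1.

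The genes whose profiles were most like those of 4 of the genes were found by the root mean square difference of centred log2 CPM over the 14 libraries, among 11870 genes. The profile follows the culture almost entirely, so such likeness is a description of the 3 cultures. Nearest to Il33 were Scg2, a secretory granule protein gene (difference 0.72), Vat1l (0.78) and Ighg2b, an immunoglobulin constant region (0.81), against a median of 2.55. Scg2 was at 8.15 ± 5.03 CPM in TfhA and had no count in Th1 or Tfh5, and Vat1l was at 36.9 ± 13.8 CPM in TfhA. Nearest to Il1r1 were Timp2, an inhibitor of matrix proteases (0.41), Acsbg1, an acyl-CoA synthetase (0.43), and Lpar6, a receptor for lysophosphatidic acid (0.48), against a median of 2.61. Timp2 was at 5.41 ± 0.7, 26.3 ± 7.72 and 298 ± 23.4 CPM in Th1, TfhA and Tfh5. Nearest to Il1rl1 were Prr15, Dock10 and Neb (0.50 to 0.53, median 1.66), and nearest to Il18r1 were Edem2, Pde7a and Mxi1 (0.14 to 0.15, median 0.73).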

How the data were processed

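RNA was sequenced from 14 libraries made from 100 ng of RNA each with a Lexogen SENSE kit for mRNA, per the labels' protocols. The authors deposited raw counts per Entrez gene with no normalization. The submitters' processing notes name STAR 2.7.2b, featureCounts 1.6.4 and mm10. No source used here gives the annotation, strand or multi-mapping settings. The series table was identical to the 14 single-library files. Of 27179 genes, 25275 have a RefSeq symbol.

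All counts entered a single edgeR 4.0.16 fit (R 4.3.3) with group means: filterByExpr (13075 genes), TMM scaling, quasi-likelihood F tests, two-sided, Benjamini-Hochberg over all tested genes, threshold 0.05. Log2 CPM carry a prior count of 2. The script was tested on simulated data. The common biological coefficient of variation was 14.25%, and replicates differed by more than counting noise (chi-square per degree of freedom 4.3 to 32.63 over 26 pairs within groups), so precision is given as SD or SE. Count floors cover counting error only. Levels per kb used exon unions of GENCODE M21. Alternatives were RLE and upper-quartile scaling, DESeq2 1.42.0, no filter, only 2 groups, a replicate block and leaving out each library.

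The 7 genes and all lists were chosen with earlier results of these data known. Named genes follow a rule: the 7 genes, per list and comparison up to 4 called genes with at least 5 CPM in a group (or the 2 most abundant where none was called), the 3 most alike genes, genomic neighbours, and the 2 most abundant markers of each list. Only some genes under the rule are printed, and some items are not reported here. Outside it are Cd4, Cd3e, Cd8a, Dcn, Myd88, Irak1, Il1rl2 in TfhA against Th1, and ligand genes under 5 CPM, which were chosen after their values were seen. Also outside it are Il23r, Il22, Nfkbiz, Traf6, Irak4, Ecsit and Peli1 in Tfh5 against TfhA, and Il9, chosen in the same way. Of 170 listed names, 169 are in the table, with 3 found by an older symbol.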

Additional observations from a re-analysis of the deposited data

Results flagged for a closer look

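A library was looked at again where its gap to the nearest other library of its culture was a large part of the culture's range (Dixon's 95% critical value). This held for 16 of 161 culture and gene combinations over 54 genes, and chance gives about 1 in 20. Of the 16, 7 were in Th1 replicate 1.

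Il33 was at 0.408 CPM in Tfh5 replicate 2, from 4 counts, and at 0 to 0.0951 in the other Tfh5 libraries. Il1rl1 was at 0.569 CPM in Tfh5 replicate 4, from 6 counts, and at 0 to 0.0951 in the others. These libraries set the size of the fold changes of both genes. Il18r1 was at 85.6 CPM in Th1 replicate 1 and at 108 to 116 in the other Th1 libraries.

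In Th1 replicate 1, Il1rl2 (4.17 CPM) and Pparg (13.1 CPM) were also below the other Th1 libraries. Nfkb2 (350 CPM), Nfkbie (96.7 CPM), Rnf31 (97 CPM) and Tbx21 (305 CPM) were above them there. In Th1 replicate 2, Il17a (0.97 CPM) and Il17f (8.59 CPM) were above the others. Pparg (2.14 CPM) and Irf4 (2345 CPM) were high in Tfh5 replicate 2, and Peli1 (271 CPM) was low in Tfh5 replicate 5. Peli2 (0.757 CPM) was high in TfhA replicate 1, and Aim2 (12.5 CPM) was low in TfhA replicate 2.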

How the results depend on the processing

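The log2 fold changes of the 7 genes shifted by at most 0.12 with DESeq2, 0.01 with RLE scaling, 0.03 with upper-quartile scaling, 0.04 when low counts were not filtered and 0.03 when only 2 groups were fitted. Leaving out 1 library moved Il33 and Il1rl1 by over 1.5 times, because a few counts stood on the low side. Il33 ranged from -8.34 to -6.32 in Tfh5 over TfhA, from 5.72 to 6.98 in TfhA over Th1 and from -2.33 to 0.31 in Tfh5 over Th1. Il1rl1 ranged from -5.30 to -2.85 in Tfh5 over TfhA and from -6.37 to -3.93 in Tfh5 over Th1. Counts of called genes, over all genes and over each list, stayed within 1.5 times under every alternative run. Among the named list genes, 18 calls were lost over all alternatives, for Il18bp, Il18, Il1rn and Csf2 (TfhA against Th1, adjusted p = 0.0584 without Th1 replicate 1, 0.00694 to 0.0584 over its alternatives).

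Whether same replicate numbers pair the libraries is not known. Deviations from the culture mean correlated at -0.048 to 0.155 (median 0.025) over 13 same-number pairs. For 52 other pairs the values were -0.368 to 0.327 (median -0.001). A pairing with small effects would look the same, so these values cannot exclude it. With a replicate block, 3432 genes were higher and 3826 lower in Tfh5 against TfhA (3586 and 3934 without it), 2837 and 2684 in TfhA against Th1, and 4010 and 4275 in Tfh5 against Th1. The block shifted the 7 genes by at most 0.27 on the log2 scale. Depth limits Il33 in Th1 and Tfh5 and Il1rl1 in Tfh5, which rest on 11, 5 and 7 counts.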
